A study of Mus musculus with 4 samples.

Results

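The genes described here encode the enzymes and transporters that take up glucose, break it down to pyruvate and lactate, admit pyruvate to the mitochondrial pyruvate dehydrogenase reaction, or feed the pentose phosphate route. They were chosen by name from a list of 35 genes, and 32 of the 35 had a probe set whose platform annotation gave that gene symbol alone, out of 19938 genes represented in this way. Gpi1, Pfkfb1 and Eno1 had no such probe set and were not analysed here. A gene with several probe sets was read from its brightest one, by mean over the arrays. The values come from mouse E14 embryonic stem cells, an established line, on 4 one-colour Affymetrix arrays of total RNA. Both groups grew on mitomycin-C-treated primary embryonic fibroblasts in medium with serum and leukemia inhibitory factor. One group was left untreated and the other received valproic acid (VPA) at 0.5 mM for 4 h, with 2 arrays each. VPA, a short-chain fatty acid used as an anticonvulsant, blocks histone deacetylases, and the question of the series is what a low dose does to gene expression within hours. The cells are of a single line, the RNA includes whatever the feeder cells contributed, and nothing in the labels says that the arrays came from separate cultures. Every p-value below thus rests on array-to-array spread alone, and that spread may be technical.

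In glycolysis, hexokinase traps glucose as a phosphate and phosphofructokinase commits it to breakdown. The enzymes from aldolase to pyruvate kinase split the product into trioses and convert these to pyruvate, with a net gain of ATP. Most steps have several isozymes encoded by separate genes, and tissues differ in which they use. Pluripotent mouse cells are known for a high glycolytic flux, with much of the pyruvate leaving as lactate. Pyruvate dehydrogenase kinases switch off the entry of pyruvate into mitochondrial oxidation by phosphorylation, and the matching phosphatases switch it on. The nonoxidative pentose phosphate enzymes connect glycolytic intermediates to ribose for nucleotides.

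Promoters of glycolytic genes are known to carry the E-box CACGTG, bound by MYC and other basic helix-loop-helix factors, and the shorter core ACGTG, which is part of the hypoxia response element and is contained in that E-box. The stretches below show this for 4 genes that reappear in the results and, for contrast, for Eno2 and Aldoc, which had neither. Each stretch is the 250 bases before an annotated start, 5′ to 3′ on the gene's strand, from RefSeq on build GRCm38.p6. Pfkfb2 had 3 annotated starts, and Pfkfb3, Ldha and Aldoc had 2 each. For Pfkfb2, Pfkfb3 and Ldha the start shown was picked because its stretch held the E-box, and their other stretches lacked it. Capitals mark ACGTG or its reverse complement CACGT, and all other bases are in lower case.
Pfkfb2 (chr1:130715822-130716071, minus strand): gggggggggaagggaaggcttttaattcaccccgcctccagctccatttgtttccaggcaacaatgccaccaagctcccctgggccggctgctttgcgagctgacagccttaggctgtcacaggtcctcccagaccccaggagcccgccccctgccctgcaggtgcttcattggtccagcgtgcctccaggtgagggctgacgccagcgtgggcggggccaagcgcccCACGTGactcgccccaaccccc
Pfkfb3 (chr2:11502091-11502340, minus strand): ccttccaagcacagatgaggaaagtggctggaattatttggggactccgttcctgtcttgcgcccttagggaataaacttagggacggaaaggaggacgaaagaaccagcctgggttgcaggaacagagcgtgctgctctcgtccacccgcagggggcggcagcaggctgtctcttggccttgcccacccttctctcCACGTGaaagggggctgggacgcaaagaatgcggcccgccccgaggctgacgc
Slc16a1 (chr3:104638414-104638663, plus strand): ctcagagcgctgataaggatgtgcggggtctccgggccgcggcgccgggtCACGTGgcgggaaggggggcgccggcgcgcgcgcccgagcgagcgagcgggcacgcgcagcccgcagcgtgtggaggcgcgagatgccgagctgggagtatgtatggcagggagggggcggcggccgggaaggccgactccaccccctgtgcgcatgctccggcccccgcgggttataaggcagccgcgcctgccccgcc
Ldha (chr7:46845554-46845803, plus strand): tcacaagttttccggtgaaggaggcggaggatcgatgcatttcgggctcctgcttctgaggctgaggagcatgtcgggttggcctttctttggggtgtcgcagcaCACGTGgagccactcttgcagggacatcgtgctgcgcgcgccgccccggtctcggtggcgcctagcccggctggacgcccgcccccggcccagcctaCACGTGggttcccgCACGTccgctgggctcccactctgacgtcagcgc
Eno2 (chr6:124769674-124769923, minus strand): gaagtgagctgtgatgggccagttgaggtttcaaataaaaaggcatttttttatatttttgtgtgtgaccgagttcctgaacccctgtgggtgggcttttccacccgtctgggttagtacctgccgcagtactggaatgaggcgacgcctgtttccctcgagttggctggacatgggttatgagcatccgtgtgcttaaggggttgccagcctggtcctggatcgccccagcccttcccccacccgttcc
Aldoc (chr11:78322823-78323072, plus strand): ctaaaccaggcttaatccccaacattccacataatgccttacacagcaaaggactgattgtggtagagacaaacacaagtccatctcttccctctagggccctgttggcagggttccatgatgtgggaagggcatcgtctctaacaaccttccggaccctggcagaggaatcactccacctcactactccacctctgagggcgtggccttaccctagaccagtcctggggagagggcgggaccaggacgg
In the stretches shown, the E-box began 22 bases before the start in Pfkfb2, 53 in Pfkfb3 and 200 in Slc16a1, and Ldha had E-boxes at 145 and 48. Of the 35 genes, 33 had a promoter entry, with 53 windows between them, some of which overlap, and Slc2a3 and Pdp1 had none. Either strand held ACGTG in 19 of the 53 windows (35.8%), against 16.6% of all 32851 promoter windows of the same length. For CACGTG the counts were 6 of 53 (11.3%) against 6.02%, in Pfkfb2, Pfkfb3, Slc16a1, Ldha, Pdk2 and Pfkm. These counts overlap, because each CACGTG contains ACGTG on both strands. The GC box GGGCGG, searched on both strands, was in 27 of 53 windows (50.9%) against 32.7%. Pfkfb2 and Pfkfb3, which differed in opposite directions with VPA, both held the E-box in the stretch picked for it. Eno2 and Aldoc differed upward without ACGTG in the stretch shown. Whether these motifs bear on the differences with VPA was not tested.

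Each array gave log2 signals for 35556 probe sets, made by the authors with RMA, and the number of arrays limits the precision. Untreated replicate 2 stood furthest from the others, with an SD over probe sets of its difference from untreated replicate 1 of 0.311. Untreated replicate 1 was closer to the VPA arrays, at 0.297 and 0.301. The embryonic stem cell markers checked, 10 of 10 measured, lay at percentiles 88.1 to 99.7 of all probe sets. Fibroblast markers, 12 of 12 measured, ranged from percentile 2.7 (Lum) to 97.1 (Vim) with a median of 62.3. Their summed linear signal was 2126 and 2141 in untreated and 1994 and 2008 in VPA arrays. That sum is weighted towards Vim and Sparc, the brightest of them. With VPA 9 of the 12 had a lower mean, as did 7 of the 10 stem cell markers. Their part in the results below was not tested. In such bulk RNA, fewer cells of a type and less RNA per cell cannot be told apart.

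After 4 h with VPA, most of the measured genes had a somewhat higher mean signal, with Pfkfb2 furthest above and Pfkfb3 furthest below its untreated level. Of 32 genes, 26 had a higher mean with VPA, where 53.7% of all represented genes did. All 32 lay at or above the median signal of all probe sets, and among the 11290 represented genes at that signal the share was 60.9%. The median log2 difference over the 32 genes was 0.17, against 0.015 over the 19938 represented genes and 0.056 over those 11290. After Benjamini-Hochberg adjustment over all probe sets, limma called no gene of the 32 and 0.0% of all probe sets. The lowest adjusted p among the 32 was 0.462. With the unadjusted p below 0.05, 5 were higher, against 5.9% of represented genes, 9.58% of the brighter ones and 5.76% of probe sets. These were Pfkfb2, Eno2, Aldoc, Pdk3 and Pdp1. Pfkfb3 alone was lower, against 2.71% of represented genes, 3.37% of the brighter ones and 3.43% of probe sets. After a second quantile normalization the counts for these genes were again 5 and 1, while the shares of represented genes were 4.33% higher and 3.74% lower and 48.9% had a higher mean. The arrays of the 2 groups did not overlap for 17 genes in the upward direction, against 24.1% of represented genes and 32.2% of the brighter ones. They did not overlap for 2 genes in the downward direction, Pfkfb3 and Hk1, against 18.1% and 16.4%. The Hk1 direction depended on the probe set, as described below. With probe sets backed by a RefSeq accession, 18 genes did not overlap upward and 1 downward, and 27 of 32 means were higher. Only Pfkfb2 was also at least 1.5-fold apart, as were 0.973% of represented genes upward and 0.266% downward.

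The upward position of the genes was uneven across the arrays. Untreated replicate 2 was the lowest array for 19 of the 32 genes (59.4%), against 30.2% of represented genes. VPA replicate 2 was the highest for 17 (53.1%), against 26.5%. The median deviation from a gene's own mean over the arrays was −0.059 in untreated replicate 1 and −0.11 in untreated replicate 2. It was 0.077 in VPA replicate 1 and 0.099 in VPA replicate 2, so both VPA arrays lay above both untreated ones. Without untreated replicate 2 the median difference was 0.13, and 3 genes were higher and 0 lower at an unadjusted p under 0.05. Without VPA replicate 1 or VPA replicate 2 the counts were 2 and 0, and without untreated replicate 1 they were 5 and 0.

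**Figure D1:**
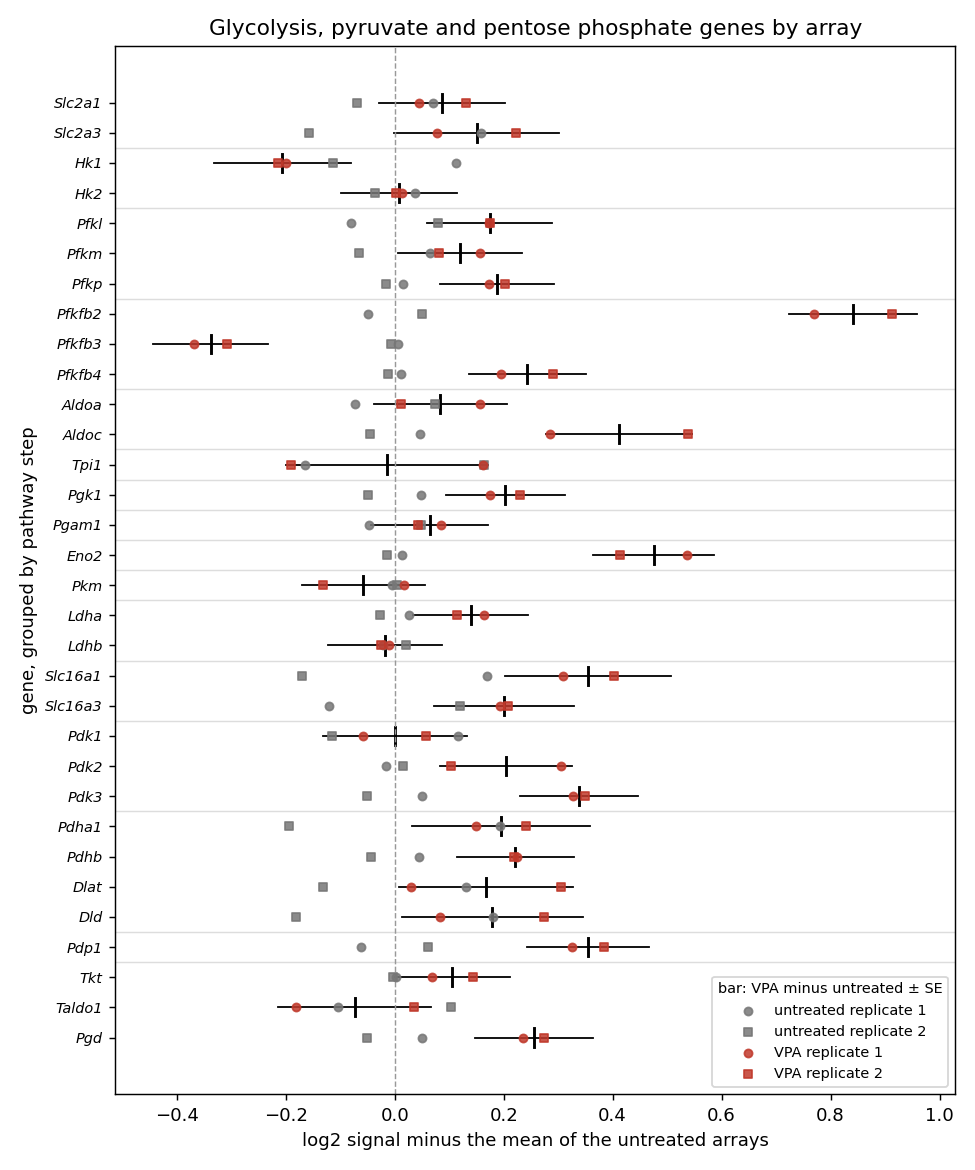
Log2 signal of each gene on each of the 4 arrays, minus the mean of the untreated arrays (x axis), with genes grouped by pathway step (y axis). Circles and squares are replicates 1 and 2, grey untreated and red VPA, and the black tick and bar give the VPA minus untreated difference ± SE from limma. Pfkfb2 stands at 0.84 and Pfkfb3 at −0.34, and most other ticks lie between 0 and 0.5.

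**Figure D2:**
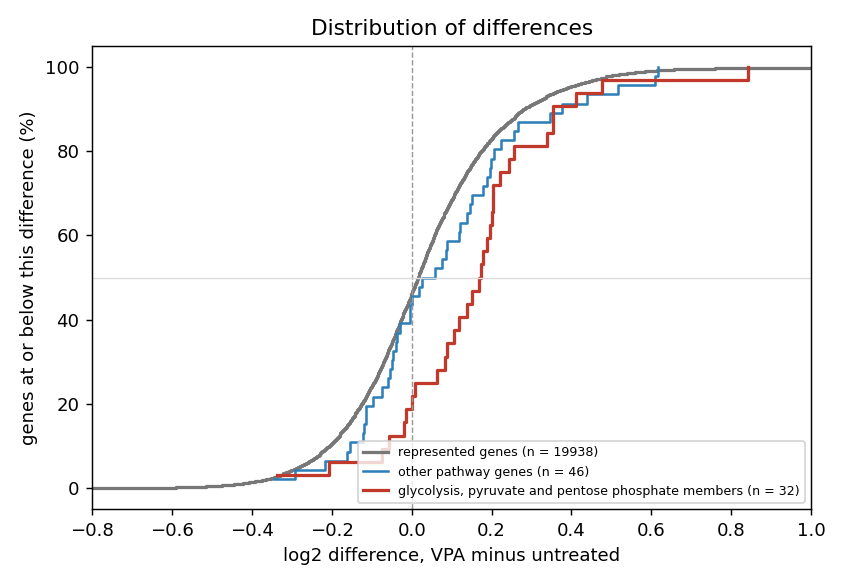
Cumulative percentage of genes (y axis) at or below each log2 difference, VPA minus untreated (x axis, drawn from −0.8 to 1.0), for all 19938 represented genes, 46 other genes of the pathways and the 32 genes described here. The curve of the 32 genes crosses 50% at 0.17, that of the other pathway genes at 0.041 and that of all genes at 0.015. All 32 lie at or above the median signal of all probe sets, while some genes of the other curves lie below it.

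Glucose enters these cells through facilitative transporters, and both measured ones were among the brightest probe sets. Slc2a1, the widespread transporter GLUT1, read 11.88 and 11.75 in untreated and 11.86 and 11.95 in VPA arrays. Slc2a3, the high-affinity transporter GLUT3, read 12.16 and 11.85 in untreated and 12.08 and 12.23 in VPA arrays. The groups overlapped for both, because untreated replicate 1 lay between the VPA arrays. The log2 difference was 0.087 for Slc2a1, with a 95% interval of −0.21 to 0.39, and 0.15 for Slc2a3, with an interval of −0.24 to 0.54. Without untreated replicate 2 the Slc2a3 difference was −0.0075.

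Hk2, the hexokinase isozyme linked to fast-growing cells, read 10.52 and 10.45 in untreated and 10.50 and 10.49 in VPA arrays. Its difference was 0.0079, with an interval of −0.27 to 0.28. The value for Hk1, the isozyme found in most tissues, depended on the probe set. Its brighter one (10414661) read 12.36 and 12.14 in untreated and 12.05 and 12.03 in VPA arrays, a difference of −0.21 ± 0.13 (SE). The dimmer one (10369541) read 6.65 and 6.68 in untreated and 6.80 and 6.85 in VPA arrays, a difference of 0.16. Neither group overlapped the other in either case, and the signs were opposite. The brighter probe set carried 1 accession and none from RefSeq, while the dimmer one carried 8 accessions including RefSeq transcripts. That single accession was shared by 16 further probe sets that name Hk1 together with Rpl17, a ribosomal protein gene. Those 16 read between 9.996 and 12.335, and all had a lower mean with VPA, by −0.065 to −0.20. Because they share that accession, they are not separate observations. In all 16, untreated replicate 2 read above untreated replicate 1, while the brighter Hk1 probe set had the reverse order. Which transcript the brighter probe set measured was not tested, and the RefSeq-backed probe set was used as an alternative.

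**Figure D3:**
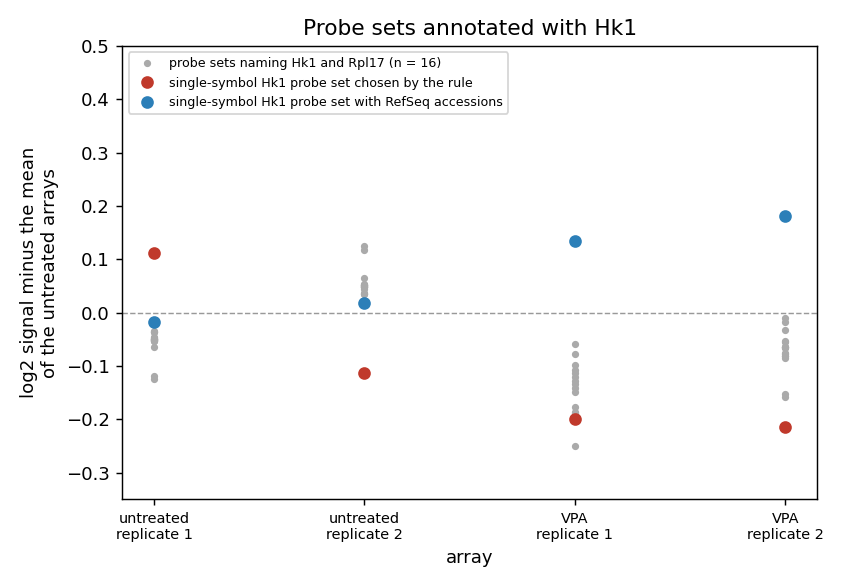
Log2 signal minus the mean of the untreated arrays (y axis) on each array (x axis) for probe sets annotated with Hk1. The rule's probe set (red) lies below 0 in both VPA arrays, the one with RefSeq accessions (blue) lies above 0 in both, and the 16 that also name Rpl17 (grey) lie below 0 in both.

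The 3 phosphofructokinase genes, which encode the liver, muscle and platelet subunits of the committing enzyme, all had a higher mean with VPA by less than 0.2. Pfkp (platelet type) read 10.08 and 10.05 in untreated and 10.24 and 10.27 in VPA arrays, so the groups did not overlap, with a difference of 0.19 ± 0.10 (SE). Pfkl (liver type) read 9.55 and 9.71 against 9.80 and 9.81, a difference of 0.17. Pfkm (muscle type) read 7.67 and 7.54 against 7.76 and 7.69, a difference of 0.12. All 3 missed the unadjusted threshold in limma.

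The bifunctional enzymes encoded by the Pfkfb genes make and remove fructose-2,6-bisphosphate, an activator of phosphofructokinase. Among the 32 genes this family held the largest difference in each direction. Pfkfb2, the isozyme typical of heart, read 5.44 and 5.54 in untreated and 6.26 and 6.40 in VPA arrays. Both VPA arrays lay above both untreated ones by far more than the replicates differed. The log2 difference was 0.84 ± 0.12 (SE), or 1.79-fold, with limma's unadjusted p = 0.00086 and an adjusted p of 0.462. Pfkfb3, the inducible isozyme with high kinase activity, read 6.42 and 6.41 in untreated and 6.05 and 6.11 in VPA arrays. Here both VPA arrays lay below, with a difference of −0.34 ± 0.10 (SE), unadjusted p = 0.024 and adjusted p = 0.504. Pfkfb4 read 3.76 and 3.74 in untreated and 3.95 and 4.04 in VPA arrays, a difference of 0.24 ± 0.11 with limma's unadjusted p = 0.074. Its probe set lay at percentile 51.3 of all, near the middle of the array, and those of Pfkfb2 and Pfkfb3 at 72.4 and 75.2. Over the 10 alternative settings the Pfkfb2 difference lay between 0.77 and 0.91 and the Pfkfb3 difference between −0.41 and −0.31. Each gene has 1 probe set, so only a second quantile normalization and leaving out an array could move these differences. The other settings returned the same difference by construction. After a second quantile normalization limma's unadjusted p was 0.0011 for Pfkfb2 and 0.011 for Pfkfb3. It was 0.0011 and 0.031 with trend and robust moderation, and 0.0025 and 0.056 with the replicate number as a block.

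From aldolase to pyruvate kinase, the 2 isozymes best known from brain, Aldoc and Eno2, differed most. Aldoc (aldolase C) read 7.40 and 7.31 in untreated and 7.64 and 7.89 in VPA arrays. Its groups did not overlap, and the difference was 0.41 ± 0.13 (SE) with unadjusted p = 0.028 and adjusted p = 0.504 in limma. Eno2 (neuron-specific enolase) read 3.96 and 3.93 in untreated and 4.48 and 4.36 in VPA arrays. Its groups did not overlap either, at a signal near percentile 55.7, and the difference was 0.48 ± 0.11 with unadjusted p = 0.0080 and adjusted p = 0.472. Over the 10 alternatives the difference ran from 0.41 to 0.54 for Eno2 and from 0.29 to 0.54 for Aldoc. Here too, only a second quantile normalization and leaving out an array could move it. After a second quantile normalization limma's unadjusted p was 0.0083 for Eno2 and 0.038 for Aldoc. It was 0.014 and 0.026 with trend and robust moderation, and 0.020 and 0.053 with the replicate number as a block.

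The widely expressed enzymes of the same stretch were bright, at percentiles 97.7 to 99.6, and differed by 0.20 or less. Pgk1, which makes the first ATP of the pathway, read 12.13 and 12.03 in untreated and 12.26 and 12.31 in VPA arrays. Its groups did not overlap, with a difference of 0.20 ± 0.11 (SE) that missed the unadjusted threshold, and its 3 probe sets gave between 0.20 and 0.21, of which 2 hold identical values. Aldoa (aldolase A) read 11.68 and 11.83 against 11.91 and 11.76, a difference of 0.084. Tpi1 (triose phosphate isomerase) read 10.37 and 10.70 against 10.70 and 10.34, so its replicates differed by more than the groups did. Pgam1 (phosphoglycerate mutase) differed by 0.064 and its groups overlapped. Pkm, the pyruvate kinase of most dividing cells, read 11.91 and 11.92 in untreated and 11.94 and 11.79 in VPA arrays. Its difference was −0.057, with an interval of −0.35 to 0.24, and its other probe set, the one with RefSeq accessions, gave −0.0062. The splice forms of Pkm were not analysed here.

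Pyruvate is reduced to lactate by lactate dehydrogenase and exported by monocarboxylate transporters. Ldha, the subunit favouring lactate formation, read 11.38 and 11.33 in untreated and 11.52 and 11.47 in VPA arrays. The groups did not overlap, at a difference of 0.14 ± 0.11 (SE). Ldhb, the subunit of oxidative tissues, read 9.08 and 9.12 against 9.09 and 9.07, a difference of −0.018 with an interval of −0.29 to 0.25. Its dimmer probe set read 8.79 and 8.76 against 8.71 and 8.72, a difference of −0.060 without overlap. Slc16a1 (the transporter MCT1) read 9.68 and 9.34 in untreated and 9.81 and 9.91 in VPA arrays. Its VPA arrays lay above both untreated ones, but the untreated arrays differed widely, and the difference of 0.35 ± 0.15 had an unadjusted p = 0.068 in limma. Without untreated replicate 2 it was 0.19, and without untreated replicate 1 it was 0.52. Slc16a3 (MCT4, the lactate exporter of glycolytic cells) read 8.60 and 8.84 against 8.91 and 8.93, a difference of 0.20 ± 0.13. Without untreated replicate 1 it was 0.080, and without untreated replicate 2 it was 0.32.

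At the pyruvate dehydrogenase branch point, genes for a kinase and for a phosphatase that oppose each other both lay higher. Pdk3, an inhibiting kinase, read 7.57 and 7.47 in untreated and 7.85 and 7.87 in VPA arrays. Pdp1, the catalytic subunit of the activating phosphatase, read 6.40 and 6.52 in untreated and 6.79 and 6.85 in VPA arrays. Neither gene's groups overlapped. Pdk3 differed by 0.34 ± 0.11 (SE) with unadjusted p = 0.027, and Pdp1 by 0.35 ± 0.11 with unadjusted p = 0.025, both with adjusted p = 0.504 in limma. After a second quantile normalization limma's unadjusted p was 0.048 for Pdk3 and 0.059 for Pdp1. It was 0.025 and 0.029 with trend and robust moderation, and 0.058 and 0.048 with the replicate number as a block. Pdk1, the kinase induced by hypoxia, read 8.81 and 8.58 against 8.64 and 8.76. Its replicates differed more than its groups, and the difference of 0.00046 had an interval of −0.34 to 0.34. Pdk2 read 4.69 and 4.72 against 5.005 and 4.804, so its groups did not overlap, with a difference of 0.20 ± 0.12.

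The subunits of the pyruvate dehydrogenase complex itself had higher means in 4 of 4 cases, by 0.17 to 0.22. Pdhb, the beta subunit of the first enzyme, was the most even, at 8.49 and 8.41 in untreated and 8.67 in both VPA arrays. Its groups did not overlap and the difference was 0.22 ± 0.11 (SE) with unadjusted p = 0.094 in limma. Pdha1 (the alpha subunit that carries the phosphorylation sites) read 10.04 and 9.65 against 9.996 and 10.087. Dlat (the acetyltransferase core) read 8.31 and 8.04 against 8.21 and 8.48. Dld (the dehydrogenase shared with other complexes) read 8.13 and 7.76 against 8.03 and 8.22. In these last 3 genes untreated replicate 2 lay lowest and untreated replicate 1 lay between the VPA arrays. Without untreated replicate 2 their differences were 0.0021 for Pdha1, 0.036 for Dlat and −0.0017 for Dld, in place of 0.20, 0.17 and 0.18. Without VPA replicate 2 they were 0.15, 0.030 and 0.083, and without untreated replicate 1 they were 0.39, 0.30 and 0.36.

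Of the pentose phosphate enzymes, Pgd, which yields ribulose phosphate and NADPH, read 9.102 and 9.001 in untreated and 9.29 and 9.33 in VPA arrays. Its groups did not overlap and the difference was 0.26 ± 0.11 (SE) with unadjusted p = 0.066 in limma. Tkt (transketolase) read 9.40 in both untreated arrays and 9.47 and 9.54 in VPA arrays, a difference of 0.11 ± 0.11 without overlap. Taldo1 (transaldolase) read 6.87 and 7.08 against 6.79 and 7.01, with overlapping groups and a difference of −0.073.

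Signals of different probe sets depend on their probes, so the level of one isozyme was not set against that of another, but the ratio of both can be followed from array to array. Of 13 pairs listed, 11 had both members measured. The VPA and untreated arrays did not overlap for 6 of them, and the exact permutation p of 2 arrays against 2 cannot go below 0.33. The share of other gene pairs without overlap was not computed, so this count only describes the list. Pfkfb2 over Pfkfb3 shifted most: the log2 ratio was −0.98 and −0.87 in untreated and 0.21 and 0.30 in VPA arrays, a shift of 1.18. That shift follows from the Pfkfb2 and Pfkfb3 differences given above, the largest in each direction, and is not a further result. Pfkfb4 over Pfkfb3 shifted by 0.58, from −2.66 and −2.67 to −2.10 and −2.06. Pdk3 over Pdk1 shifted by 0.34 and Aldoc over Aldoa by 0.33. In the latter pair untreated replicate 1 (−4.28) and VPA replicate 1 (−4.27) were almost level. Leaving out VPA replicate 2 reduced the shift to 0.13, and leaving out VPA replicate 1 gave 0.53. Ldhb over Ldha shifted by −0.16. Hk2 over Hk1 shifted by 0.21 with the rule's Hk1 probe set and by −0.15 with the RefSeq-backed one. Groups overlapped for Slc2a3 over Slc2a1, Pfkp over Pfkl, Pfkm over Pfkl, Slc16a3 over Slc16a1 and Pdk2 over Pdk1. A shift shows unequal change of the pair and not that either gene stayed the same.

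**Figure D4:**
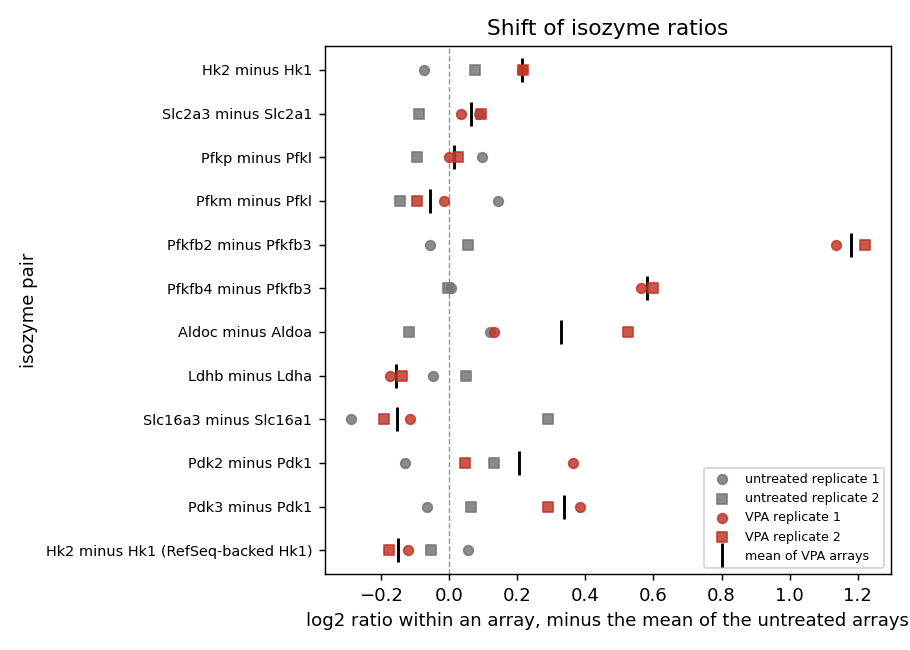
Within-array log2 ratio of isozyme pairs, minus the mean of the untreated arrays (x axis), for 11 pairs and a second version of the hexokinase pair (y axis). Circles and squares are replicates 1 and 2, grey untreated and red VPA, and black ticks are the means of the VPA arrays. Pfkfb2 over Pfkfb3, whose genes had the largest differences in opposite directions, stands apart at 1.18. The hexokinase pair turns sign with the Hk1 probe set.

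A further 49 genes of the same pathways, among them minor isozymes, gluconeogenic enzymes and regulators, were listed, and 46 had a single-symbol probe set. Their median log2 difference was 0.041, with 26 of 46 means higher (56.5%), near the 53.7% of represented genes. Unlike the 32 genes, some of the 46 lay below the median signal of all probe sets, such as Pgk2 at percentile 12.4. The lists thus differ in brightness as well. With limma's unadjusted p below 0.05, 3 were higher (5.9% of represented genes) and 1 lower (2.71%). No gene of the 46 was called after adjustment. Slc2a4, the insulin-responsive transporter GLUT4, read 3.62 and 3.83 in untreated and 4.41 and 4.28 in VPA arrays, a difference of 0.62 ± 0.13 (SE). G6pc3, the widely expressed glucose phosphatase, read 4.84 and 4.73 against 5.45 and 5.33, a difference of 0.61 ± 0.12. Pdk4, the kinase induced by fasting, read 4.35 and 4.48 against 4.85 and 4.86, a difference of 0.44 ± 0.11. Pgls, which hydrolyses the lactone of the oxidative pentose phosphate branch, read 4.77 and 4.81 against 4.51 and 4.48, a difference of −0.29 ± 0.10. The groups did not overlap in these 4 genes, which their choice by p made likely. Over the 46, groups did not overlap upward for 17 (37.0%) and downward for 7 (15.2%), against 24.1% and 18.1% of represented genes. The signals of the 4 genes lay at percentiles 53.7 to 65.1. Among regulators of the pathway, Hif1a (the hypoxia-inducible factor) differed by −0.0049 and Txnip (an inhibitor of glucose uptake) by 0.14. Gapdh, Mpc2 and G6pdx had no single-symbol probe set and were not analysed in this list.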

How the data were processed

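Total RNA of E14 cells was measured on 4 Affymetrix arrays, 2 untreated and 2 VPA, assigned to groups by the treatment in each sample title. The authors deposited a log2 signal for each probe set on each array. The submitters' processing notes name RMA and Affymetrix Expression Console 1.1. RMA subtracts background, equalises the arrays by quantiles and combines the probes of a set. Which arrays entered 1 normalization is not given. Symbols came from the platform annotation: 21789 probe sets had 1, 1621 several and 12146 none here. Gene IDs of the 32 genes matched RefSeq with the same symbol in 32 cases.

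The log2 values were fitted by limma 3.58.1 (lmFit, eBayes; R 4.3.3) over all 35556 probe sets, with treatment as the only term, 2 residual and 2.93 prior degrees of freedom, two-sided tests and Benjamini-Hochberg adjustment at 0.05. Intervals of 95% use the moderated t distribution of that fit. Percentiles rank a probe set's mean signal among all probe sets. A fit on simulated data with known changes was checked. Every gene is named, with full values where the unadjusted p was under 0.05 or groups lay at least 0.3 apart without overlap, plus main isozymes of the other steps. Of the other pathway genes, those with an unadjusted p under 0.05 are given. Hif1a, Txnip and the remaining genes with values were added for their role. The genes, lists and tests were chosen with earlier results of these data known. Alternatives were a second quantile normalization, leaving out dimmer probe sets, averaging probe sets, trend and robust moderation, the replicate number as a block, leaving out each array, and, chosen after seeing the data, RefSeq-backed probe sets. Same-numbered arrays did not deviate together (r = −0.097 over probe sets, 2 pairs), so the numbers were not taken to pair samples.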

Additional observations from a re-analysis of the deposited data

How the results depend on the processing

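With limma, 0 of the 32 genes were called under each of the 10 alternatives. Leaving out dimmer probe sets, averaging probe sets and the RefSeq choice left the values of the 27 genes with 1 probe set unchanged. Trend and robust moderation and the replicate block change limma's p and not the difference of means. The median difference was 0.15 after a second quantile normalization and ran from 0.13 (without untreated replicate 2) to 0.19 when 1 array was left out. At an unadjusted p under 0.05, trend and robust moderation gave 8 genes higher. With the replicate number as a block, 3 were higher and 0 lower. With 1 array left out, 2 to 5 were higher and 0 lower, the lone array being assumed to vary like the other group. Signs turned for values near 0: Tpi1 (0.0057) and Pdk1 (−0.038) after a second quantile normalization. Hk1, which was not near 0 at −0.21, turned to 0.16 with the RefSeq-backed probe set, and the groups did not overlap in either. With 1 array left out, the ranges that crossed 0 were −0.0075 to 0.31 for Slc2a3, −0.029 to 0.045 for Hk2, −0.19 to 0.16 for Tpi1 and −0.13 to 0.018 for Pkm. They were −0.040 to 0.0036 for Ldhb, −0.12 to 0.12 for Pdk1, −0.0017 to 0.36 for Dld and −0.18 to 0.036 for Taldo1. The number of arrays limits the precision, and no detection calls were used, so how far signal over background limits the dimmer genes was not tested.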

Other observations

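Gapdh, the glycolytic dehydrogenase between aldolase and phosphoglycerate kinase, was named only together with other symbols, most of them predicted genes, on 25 probe sets. These read between 11.90 and 13.57 over all arrays. Their log2 differences ran from −0.015 to 0.017 with a median of 0.0048, 16 being higher and 9 lower, and 0 had an unadjusted p under 0.05 in limma. Because each of these probe sets carries several symbols, the values describe the set and not Gapdh alone.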
